A study of Homo sapiens with 30 samples.

Results

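Lung metastases of subclone 13 of MDA-MB-231 were compared with the primary tumours of the same subclone in the same mice. MDA-MB-231 is an established human breast cancer line of triple-negative, mesenchymal-like type, which spreads to lung and liver when it grows as a tumour in mice. The cells carried LeGO barcodes, lentiviral marks by which the offspring of a labelled cell can be recognised and sorted. The hosts were NOD-SCID-IL2Rγc-/- (NSG) mice, which lack T, B and natural killer cells. The comparison held all samples labelled subclone 13 and either lung metastasis or primary tumour: 6 samples from 3 mice, of 24 samples in the whole series. These 6 samples were summed from 10 sequenced ones, because mouse 1 had 3 libraries per organ. Liver metastases of subclone 13, and lung metastases and tumours of subclone 2, each from the same 3 mice, served for comparison. Subclone, organ and mouse are the only differences between the groups that the labels give; the age of the mice and the site and length of tumour growth are not given in the sources used here. All groups share the cell line, the barcoding and the immunodeficient host, and each subclone stands for 1 lineage of 1 line.

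A tumour cell that grows in the lung meets another matrix, oxygen supply and set of neighbouring cells than in the breast. Extracellular matrix of a carcinoma is made both by host fibroblasts and by the carcinoma cells, and mesenchymal-like lines express many collagens, matrix glycoproteins and their processing enzymes. ID1, SOCS3 and the immediate early genes are fast response genes of the BMP, cytokine and growth factor pathways, while interferon-stimulated genes answer to type I interferon or to nucleic acids sensed within the cell. The 13 mitochondrially encoded mRNAs are transcribed from the mitochondrial genome and code for core subunits of the respiratory chain.

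The lung samples had 82.2, 15.8 and 13.4 M counts (1 M is 1e+06) in mice 1, 2 and 3, and the tumour samples 50.4, 18.7 and 26.1 M. Sequencing run and mouse cannot be told apart, except that the libraries of mouse 1 came from 3 runs. All 12 genes of a list for MDA-MB-231, led by VIM, were above 1 CPM (counts per 1e+06 counts) in each of the 6 samples, and summed to 12340 to 16540 CPM. The counts are of human genes whereas the hosts were mice, so the marker values below do not measure host cells. Of 16 lung epithelial markers, SCGB1A1 and SCGB3A2 were at 0 in all 6 samples and the surfactant gene SFTPC was at 0 in all 3 lung samples. That list summed to 26.2 to 41.4 CPM in lung and 35.2 to 41.2 CPM in tumour samples, most of it ABCA3. NKX2-1 was at 10.6 CPM in the tumour of mouse 1, at 0 in its lung and at or below 0.650 in the other samples. Of 14 leukocyte markers MPO was at 0 throughout and PTPRC was at or below 0.897 CPM. The sums were 7.72 to 17.3 CPM in lung and 12.7 to 16.3 CPM in tumour, most of it CSF1R and CD14, which lay in opposite order. CSF1R had 6.82, 2.34 and 4.41 CPM in lung and 10.3, 12.2 and 12.7 in tumour. CD14 had 8.77, 3.67 and 8.0 in lung and 1.05, 0.854 and 1.45 in tumour. Endothelial markers summed to 178 to 251 CPM in lung and 180 to 209 CPM in tumour, most of it ESAM and ROBO4, while VWF was at or below 0.748 CPM. Fibroblast and mural markers summed to 57.4 to 74.5 CPM in lung and 106 to 120 CPM in tumour, of which CSPG4 and PDGFRB were the most abundant, while DCN was at or below 0.134 CPM. Of 8 tested members of that list FAP and PDGFRB were called lower in the lung, 7 of 8 estimates were below 0 and the median was -0.83. Erythroid markers summed to at most 0.365 CPM.

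Between lung metastases and tumours, 503 of 17418 genes tested (2.89%) differed at an adjusted p under 0.05 in edgeR's quasi-likelihood test with mouse as a term, and these are referred to as called. Of these, 133 (0.764%) were higher and 370 (2.12%) were lower in the lung. Genes of the matrix, interferon response and hypoxia response lay among the lower ones, and mitochondrially encoded mRNAs, mucins and fast response genes among the higher ones. The higher genes had a median log2 fold change of 1.52 and the lower genes of -1.01, against 0.02 over all genes tested. All but 1 of the 503 moved in the same direction in all 3 mice. The calls came from a test on these same pairs, which favours such genes, and the share over all genes tested was not counted. The exception was PRSS2, a trypsinogen gene with near-identical copies, named here after its values were seen. The groups did not overlap for 460 of the 503 called genes, and for 3009 of all genes tested (17.3%).

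These calls rest on the pairing by mouse. Without the mouse term 73 genes (0.419%) were called, 26 higher and 47 lower, and each of them was also called with it. DESeq2 with the mouse term called 911 of the 14041 genes it adjusted (6.49%). Leaving out mouse 3 left 84 called genes and leaving out mouse 2 left 104, against 349 without mouse 1. Of the 39 genes named by a fixed rule on size and direction, none changed sign in 21 other settings. That rule asked for the same direction in all 3 mice, so a change of sign was unlikely in advance. The 14 that stayed called in all 21 settings were ID1, SOCS3, TNFSF4, TFF3, MT-ND1 and MT-ND2 among the higher genes and TNC, COL6A3, COL1A2, TGFBI, THBS2, LTBP2, HUWE1 and LINC03040 among the lower.

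**Figure D1:**
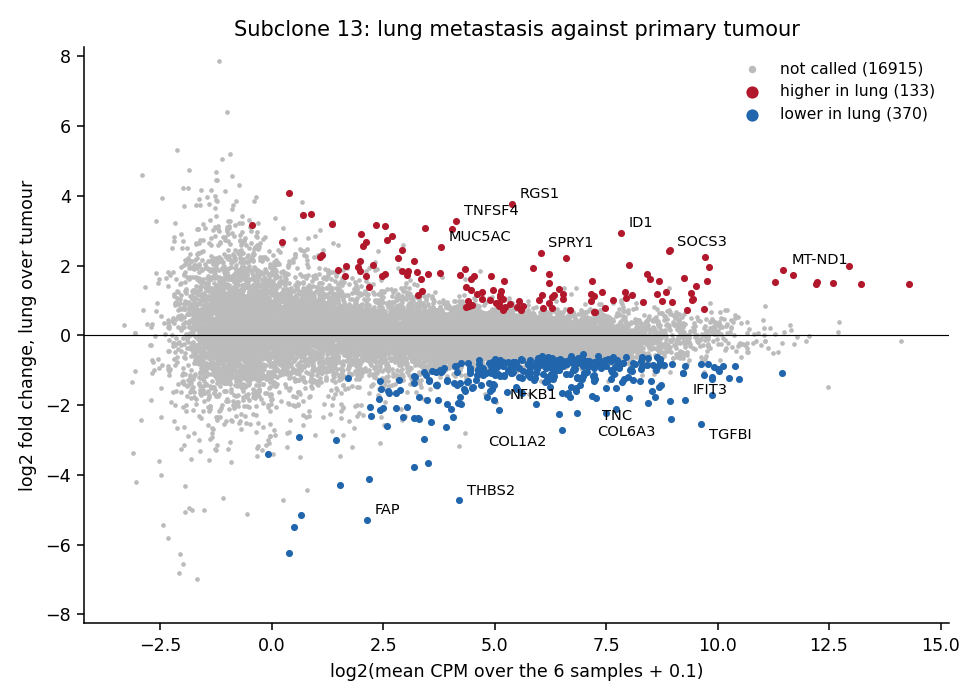
Fitted log2 fold change of lung over tumour (vertical axis) against the log2 of the mean CPM over the 6 samples plus 0.1 (horizontal axis) for the 17418 genes tested; red points are the 133 genes higher in lung, blue points the 370 lower, grey points genes not called. Lower calls outnumber higher ones, and the mitochondrial MT-ND1 lies far right among the most abundant transcripts.

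Among fast response genes, ID1 and SOCS3 stood out in every mouse. ID1, an inhibitor of basic helix-loop-helix transcription factors and a target of BMP signalling, lies at chr20:31605283-31606515 (GRCh38, GENCODE v29, as for all positions of genes below). Its level, here and below in CPM scaled by trimmed means (TMM), was 408, 325 and 478 in the lung of mice 1, 2 and 3 and 55.5, 64.8 and 33.4 in the tumour. Every lung sample was thus far above every tumour sample, and ID1 rose by 2.95 ± 0.29 (log2 fold change ± SE; edgeR adjusted p = 1.25e-05). Libraries 1, 2 and 3 of mouse 1 gave 323, 364 and 361 CPM of total counts in lung and 47.4, 53.1 and 53.1 in tumour. Its relative ID3 had 26.5, 37.2 and 36.7 CPM in lung and 10.8, 10.1 and 10.9 in tumour, and rose by 1.63 ± 0.26 (edgeR adjusted p = 0.00173). Of the 22 tested ID and BMP genes, these 2 rose, 2 fell and 18 were not called, with a list median of -0.16. The 2 that fell were BAMBI, a decoy receptor that dampens TGF-beta and BMP signals (-1.29), and BMP1, a protease that trims procollagens (-1.16). As these are bulk samples, a change in the share of cells that express a gene and a change in RNA per cell cannot be told apart, here or below.

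SOCS3, the feedback inhibitor of cytokine receptors that signal through STAT3, lies at chr17:78356778-78360077. It had 668, 516 and 1269 CPM in lung against 168, 108 and 151 CPM in tumour. The lung values spread more than the tumour values, with mouse 3 highest, yet did not overlap with them; SOCS3 rose by 2.41 ± 0.21 (edgeR adjusted p = 9.94e-06). Of 24 tested genes of IL-6 family and STAT3 feedback signalling, SOCS3 rose, the kinase JAK1 fell by 0.87 and 22 were not called, with a median of 0.10. ZFP36, which destabilises mRNAs of cytokines, had 520.0, 575 and 1411 CPM in lung and 181, 82.3 and 163 in tumour, a rise of 2.45 ± 0.35. It belongs to the immediate early genes, of which 5 of 27 rose, none fell and 22 were not called (median 0.49); FOS, IER2, KLF2 and KLF10 were the others, with rises of 1.96, 1.25, 1.23 and 1.18. Without the mouse term ZFP36 was called and the other 4 were not.

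Among the inhibitors that ERK signalling induces against itself, a few members rose strongly and most were not called. SPRY1, a Sprouty inhibitor of receptor tyrosine kinase signalling, had 102, 102 and 124 CPM in lung and 18.5, 21.4 and 23.9 in tumour. The values were close together within each organ, and the rise was 2.36 ± 0.23 (edgeR adjusted p = 1.25e-05). DUSP1, a phosphatase of MAP kinases, had 1348, 1040 and 1735 CPM in lung and 419, 176 and 297 in tumour and rose by 2.26 ± 0.28. DUSP5, its relative that acts on ERK, rose by 0.96 ± 0.24. These were 3 of 24 tested members; 21 were not called and the median was 0.16. Among 19 glucocorticoid targets, RASD1, CDKN1C and KLF9 rose by 1.75, 1.09 and 0.78, 1 fell and 15 were not called; none of the 3 that rose was called without the mouse term. ARRDC3, an alpha-arrestin, rose by 2.02 ± 0.23, from 164, 79.2 and 74.1 CPM in tumour to 428, 393 and 405 in lung, while its relative TXNIP, the thioredoxin-interacting protein, fell by 1.5 ± 0.35.

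**Figure D2:**
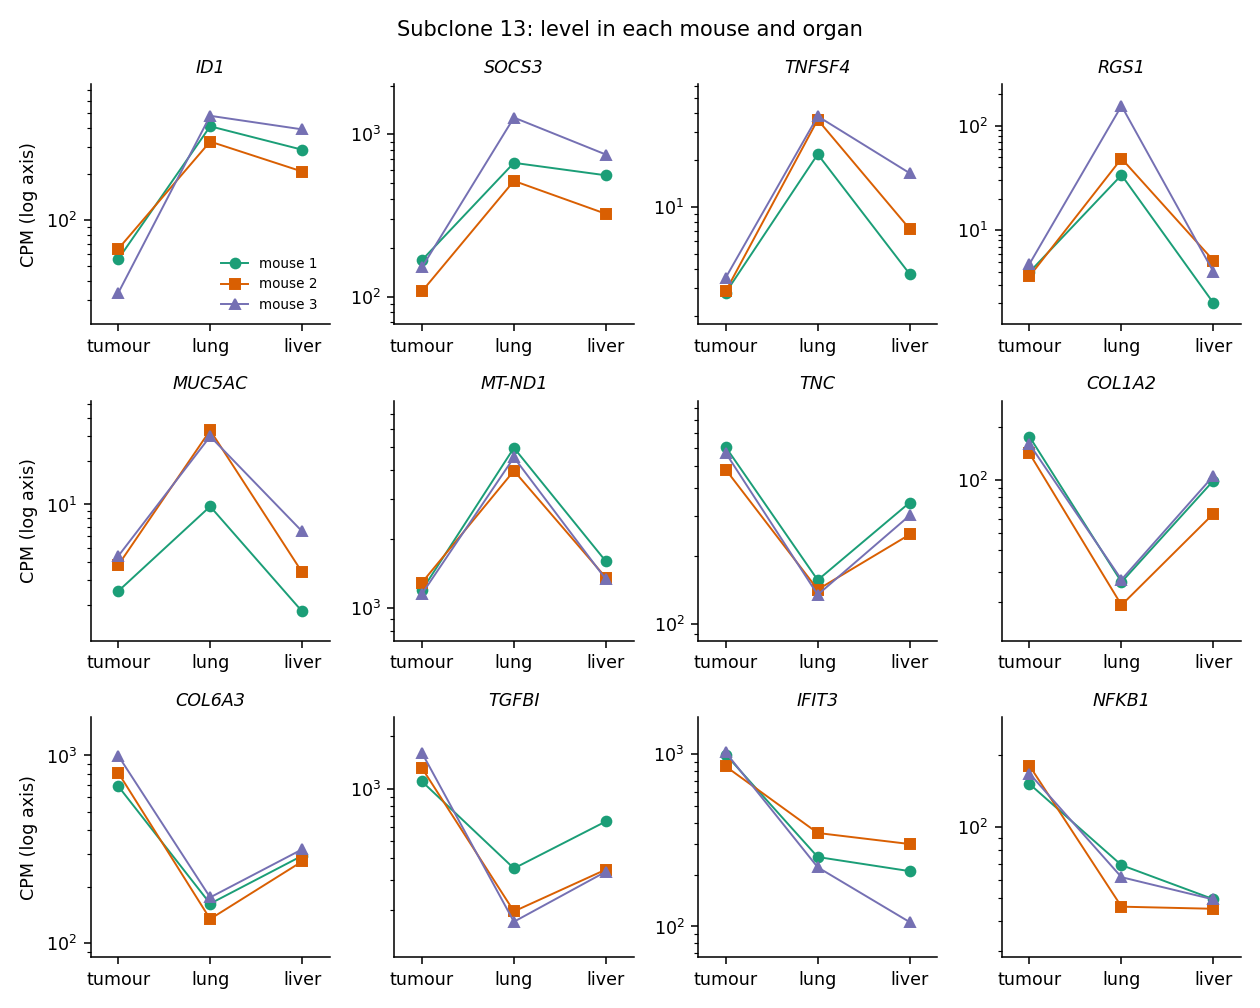
CPM (log axis) of 12 genes of subclone 13 in primary tumour, lung metastasis and liver metastasis; each line joins the 3 samples of 1 mouse. ID1, SOCS3, TNFSF4, RGS1, MUC5AC and MT-ND1 are higher in lung than in tumour in all 3 mice and TNC, COL1A2, COL6A3, TGFBI, IFIT3 and NFKB1 lower.

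The largest rises among genes with at least 5 CPM in the higher group included signalling and surface molecules. RGS1, which shortens G protein signals downstream of chemokine receptors, had 33.8, 48.5 and 155 CPM in lung and 3.99, 3.64 and 4.78 CPM in tumour. The groups did not overlap, with the lung of mouse 3 highest by far, and RGS1 rose by 3.76 ± 0.83 with a wide error (edgeR adjusted p = 0.0172; 0.184 without the mouse term). TNFSF4, the ligand of the T cell receptor OX40, had 21.7, 36.2 and 38.1 CPM in lung and 2.81, 2.87 and 3.5 in tumour, a rise of 3.29 ± 0.45 (adjusted p = 0.000406). It was the only member of the TNF ligand and receptor families to rise among 31 tested; TNFSF10, the death ligand TRAIL, fell by 1.27 ± 0.3 and 29 were not called. CD14, a co-receptor for lipopolysaccharide, had 10.1, 3.65 and 7.93 CPM in lung and 1.14, 0.820 and 1.51 in tumour and rose by 2.68 ± 0.7 (adjusted p = 0.0448; 0.3 without the mouse term). CD14 is also a leukocyte marker. The leukocyte gene PTPRC was at 0.0243, 0.0633 and 0.897 CPM in the lung samples. CSF1R, another marker of that list, was lower in each lung sample than in the tumour and was not called. The part of other cells in the CD14 values was not tested. GYPC, a membrane skeleton protein best known from red cells, rose by 3.15 ± 0.64. The erythroid markers summed to at most 0.365 CPM, which does not measure red cells of the mouse. Further genes of this group were SOBP (3.15), the collagen prolyl isomerase FKBP10 (3.04), the stress cytokine GDF15 (2.75) and the antisense transcript C1QTNF7-AS1 (2.56), whose reads an unstranded library cannot separate from those of a gene on the opposite strand. None of these 4 was called without the mouse term.

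Gel-forming mucins and trefoil factors were higher in the lung where called. Of 20 tested mucins, trefoil factors and glycosyltransferases that decorate them, 7 rose, 1 fell and 12 were not called; the list median was 0.77. MUC5AC, a secreted mucin of airway and stomach, had 9.7, 32.7 and 29.6 CPM in lung and 2.5, 3.79 and 4.38 in tumour. Mouse 1 was the lowest in both organs, and the rise was 2.53 ± 0.42 (edgeR adjusted p = 0.00224; 0.169 without the mouse term). MUC5B, its neighbour on chromosome 11, had 4.99, 14.2 and 20.5 CPM in lung and 2.12, 1.23 and 2.19 in tumour, a rise of 2.44 ± 0.54. TFF3, a trefoil peptide secreted with mucins, had 5.93, 8.12 and 20.3 CPM in lung and 1.86, 0.871 and 0.915 in tumour and rose by 2.84 ± 0.5 (adjusted p = 0.00391). TFF2 (3.49), the membrane mucin MUC4 (2.69), AGR2, a disulfide isomerase needed for mucin folding (1.15), and B3GNT7, which extends keratan sulfate and mucin glycans (1.7), were the other members that rose. GALNT6, which starts mucin-type glycans, fell by 0.77 ± 0.2. Without the mouse term TFF2, TFF3 and B3GNT7 were called. Of the 16 lung epithelial markers, 5 were tested and none was called, with a median of -0.24. SCGB1A1 and SCGB3A2 were at 0 in these samples. The lung of mouse 3, which had the most MUC5B and TFF3, had a marker sum of 41.4 CPM, and its tumour 41.2. In that lung FOXJ1 was at 3.81 CPM (1.42 in its tumour), NAPSA at 3.07 (1.26) and SLC34A2 at 0.598 (0). Other members were lower there: ABCA3 at 27.5 (29.3), AGER at 6.13 (7.96), LAMP3 at 0.0748 (0.574) and NKX2-1 at 0.0748 (0.650). Host airway cells would be mouse cells, which counts of human genes do not measure, and their part in the mucin values was not tested.

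Each of the 13 mitochondrially encoded mRNAs was called higher in the lung. Together they made up 8.56%, 9.61% and 9.71% of all counts in the lung of mice 1, 2 and 3 and 2.86%, 3.25% and 3.45% in the tumour. Liver metastases had 3.79%, 4.36% and 3.68%, close to the tumour and apart from the lung. The lung share was 6.11 ± 0.36 percentage points above that of the tumour (mean ± SD of 3 differences, higher in 3 of 3 mice; exact two-sided sign-flip permutation p = 0.25, the smallest that 3 pairs allow). Libraries 1, 2 and 3 of mouse 1 gave 8.89%, 8.43% and 8.49% in lung and 3.0%, 2.77% and 2.8% in tumour. MT-ND4, a subunit of complex I, had 13690, 11930 and 12370 CPM in lung and 3918, 2755 and 2959 in tumour and rose by 2.0 ± 0.22 (edgeR adjusted p = 5.44e-05). MT-ND1, at chrM:3307-4262, had 4980, 3961 and 4525 CPM in lung and 1199, 1294 and 1156 in tumour and rose by 1.88 ± 0.22. The smallest change was that of MT-ND3 (1.04) and the list median was 1.52; 8 of the 13 were called without the mouse term. Nuclear copies share reads with these genes: MTND2P28 on chromosome 1 had a rise of 1.55.

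Nuclear genes of the same machinery were not called. None of 37 tested nuclear respiratory chain subunits and none of 22 genes for mitochondrial transcription and RNA processing passed, with medians of 0.23 and 0.03. None of 46 cytosolic ribosomal protein genes passed either, although all 46 estimates were above 0, between 0.03 and 0.69. Of 10 tested nuclear long noncoding RNAs, MALAT1 and NEAT1 rose, by 1.62 ± 0.31 and 1.4 ± 0.35. MALAT1 had 203, 815 and 597 CPM in lung and 64.7, 336 and 147 in tumour. The mice differed by more than the organs here, the groups overlapped, and neither RNA was called without the mouse term (adjusted p = 0.692 and 0.947).

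**Figure D3:**
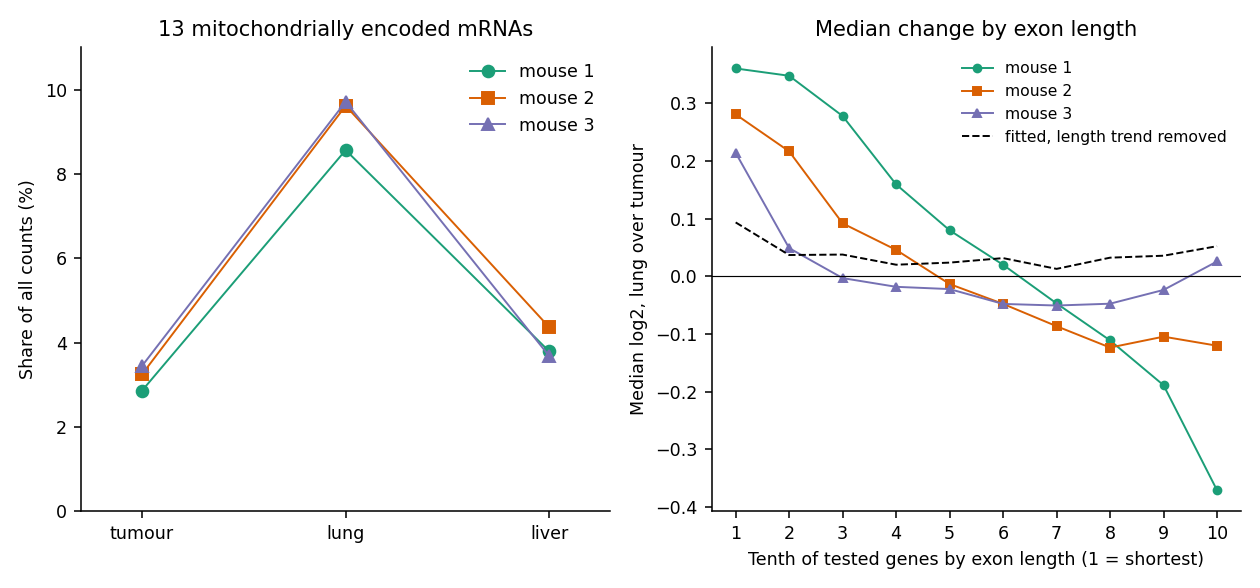
Left, share of all counts taken by the 13 mitochondrially encoded mRNAs in each sample of subclone 13, with lines joining the samples of 1 mouse; the 3 lung samples lie at 8.56% to 9.71%, above all tumour and liver samples. Right, median log2 ratio of lung over tumour within each mouse for 10 bins of the genes ordered by exon length (bin 1 the shortest, bin 10 the longest); the dashed line is the median fitted log2 fold change after the length trend was removed.

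Short genes as a whole were higher and long genes lower in the lung. Across the 17418 tested genes, which are not independent replicates, the Spearman correlation of exon length with the log2 fold change was -0.26. The median log2 fold change fell from 0.39 in the shortest of 10 bins (up to 1025 bases of merged exons) to -0.14 in the longest (9901 bases or more). Mouse 1 had the steepest slope, with medians of 0.36 and -0.37, and mouse 3 the flattest, with 0.21 and 0.03. Median exon length was 7322 bases for the lower genes, 3314 for the higher genes and 4244 over all genes tested; collagen chains had 9282 and the mitochondrial mRNAs 784. After the trend on length was taken out of each sample, a step added after seeing the data, 415 genes were called, 163 higher and 252 lower, of which 348 were among the 503. In that fit 11 of 13 mitochondrial mRNAs, 6 of 20 mucin genes and 5 of 27 immediate early genes were higher, and 5 of 25 collagens, 7 of 33 matrix glycoproteins and 8 of 43 interferon-stimulated genes lower. Lower calls went from 9 to 5 among collagen chains, from 3 to 0 among adhesion molecules and from 4 to 1 among contractile genes. They went from 3 to 1 each in the cholesterol and fatty acid lists and from 7 to 5 among glycolysis and hypoxia genes. The lower calls of CD44, POLA1, SLC6A6 and GALNT6 and the higher calls of CD14 and GADD45B were also lost. What produces the length trend was not tested.

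Genes of the extracellular matrix were mostly lower where called. Of 25 tested collagen chains 9 fell, none rose and 16 were not called, and the list median was -0.94. COL1A2, a chain of the main fibrillar collagen type I, lies at chr7:94394561-94431232 and had 26.1, 19.3 and 27 CPM in lung against 176, 141 and 159.5 CPM in tumour. The groups were far apart, and COL1A2 fell by 2.72 ± 0.39 (edgeR adjusted p = 0.000534). COL6A3, of the microfibrillar type VI, had 162, 134 and 175 CPM in lung and 687, 810.1 and 999 in tumour and fell by 2.39 ± 0.27 (adjusted p = 7.41e-05). The basement membrane chains COL4A1 and COL4A2 fell by 1.58 ± 0.28 and 1.33 ± 0.3, and COL5A1, COL8A1, COL12A1, COL15A1 and COL17A1 by 1.47, 1.2, 0.94, 2.32 and 1.38. COL1A2, COL6A3 and COL4A1 were the 3 called without the mouse term. The fibroblast collagen gene COL3A1 had 4.46, 1.77 and 0.748 CPM of total counts in lung and 19.0, 0.587 and 2.07 in tumour, and the fibroblast and mural markers summed to less in lung than in tumour, as given above; among them PDGFRB, a receptor of pericytes and fibroblasts, had 14.6, 7.72 and 18.4 CPM of total counts in lung and 25.8, 35.9 and 35.3 in tumour and fell by 1.27 ± 0.32 (edgeR adjusted p = 0.0343). The part of these markers in the collagen values, and in those of the matrix genes below, was not tested.

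Matrix glycoproteins showed the same direction in their called members, 7 lower and none higher of 33 tested, with 26 not called and a median of -0.37. TNC, tenascin C, an adhesion-modulating glycoprotein of tumour stroma and stem cell niches, lies at chr9:115019578-115118257. It had 156, 142 and 135 CPM in lung and 606, 482 and 571 CPM in tumour. The spread within each organ was small, and TNC fell by 1.93 ± 0.18 (edgeR adjusted p = 9.94e-06, the smallest of all genes, shared with SOCS3). TGFBI, a TGF-beta-induced adhesion protein of the matrix, had 348, 197 and 172 CPM in lung and 1100, 1313 and 1605 in tumour and fell by 2.54 ± 0.33. THBS2, thrombospondin 2, an inhibitor of angiogenesis, had 3.12, 0.566 and 1.04 CPM in lung and 38.4, 43.9 and 23.1 in tumour and fell by 4.74 ± 0.77. CCDC80, FBN1, LTBP1 and LTBP2 fell by 2.13, 1.35, 1.0 and 1.81; fibrillin 1 and the latent TGF-beta binding proteins together form microfibrils that store TGF-beta. Of 23 tested TGF-beta ligands, receptors and targets 4 fell, among them TGFBI, LTBP1 and LTBP2, none rose and 19 were not called, with a median of -0.36. None of 16 tested proteoglycans was called, with a median of -0.47.

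Enzymes that modify, cross-link and cut the matrix were also among the lower genes. Of 25 tested collagen processing genes 6 fell, none rose and 19 were not called (median -0.48). FKBP10, the collagen prolyl isomerase given above, was not in this list and rose by 3.04. LOX, which cross-links collagen and elastin, had 51.3, 47.7 and 38.7 CPM in lung and 208, 108 and 161 in tumour and fell by 1.75 ± 0.22 (edgeR adjusted p = 0.000194). The prolyl hydroxylases P4HA1 and P4HA2, the lysyl hydroxylase PLOD1, the LOX relative LOXL2 and the collagen chaperone SERPINH1 fell by 0.89, 0.97, 1.02, 0.8 and 0.67. Of 35 tested matrix proteases and inhibitors 9 fell, 1 rose and 25 were not called (median -0.46). MMP14, a membrane-bound collagenase, had 904, 758 and 865 CPM in lung and 1907, 1877 and 2217 in tumour and fell by 1.25 ± 0.2. The urokinase PLAU and its receptor PLAUR fell by 1.26 and 0.86, the lysosomal protease CTSB by 0.96, and ADAM12, ADAM19, ADAMTS6 and ADAMTS12 by 2.33, 0.89, 2.07 and 2.97. ADAMTS1, a protease of aggrecan and versican, rose by 1.94 ± 0.45. LOX and MMP14 were the members of these 2 lists called without the mouse term.

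FAP, a serine protease of activated fibroblasts that is also made by some carcinoma lines, gave the largest fall among genes with at least 5 CPM in tumour. It had 0.534 CPM in the lung of mouse 1 and 0 in that of mice 2 and 3, against 17.2, 3.84 and 4.34 CPM in tumour. FAP fell by 5.29 ± 1.12, a fitted value that depends on how zeros are handled (edgeR adjusted p = 0.013; 0.121 without the mouse term). Further members of the group with the largest falls were the unconventional myosin MYO7B (-4.28), the chemerin receptor CMKLR1 (-4.13), the keratin KRT79 (-3.78), the netrin receptor UNC5B (-3.67), the serine protease HTRA3 (-2.41), APBB1IP, an adaptor that activates integrins through talin (-2.61), PLEKHG4B (-2.59), MYH16 (-2.38) and LINC03040 (-2.49). Of these 9, LINC03040 was called without the mouse term. KRT79 had 0.815, 0.755 and 2.3 CPM in lung and 5.27, 24.8 and 20.2 in tumour.

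Matrix receptors and the contractile machinery had fewer calls. Of 27 tested laminins and integrins, 3 fell, among them LAMC1 and the fibronectin receptor chain ITGA5 (-1.32 and -1.77), none rose and 24 were not called (median -0.52). ITGA5 had 221, 165 and 150.1 CPM in lung and 632, 534 and 606 in tumour. Of 23 contractile genes, the actin cross-linkers FLNA and ACTN1, the non-muscle myosin MYH9 and TAGLN2 fell (-1.07, -0.84, -0.87 and -0.81), with none higher, 19 not called and none of the 4 called without the mouse term. Of 21 adhesion molecules L1CAM, NECTIN1 and ANTXR1 fell and 18 were not called. CD44, the hyaluronan receptor, fell by 1.08 ± 0.23 as the one call among 20 genes of epithelial and mesenchymal state.

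**Figure D4:**
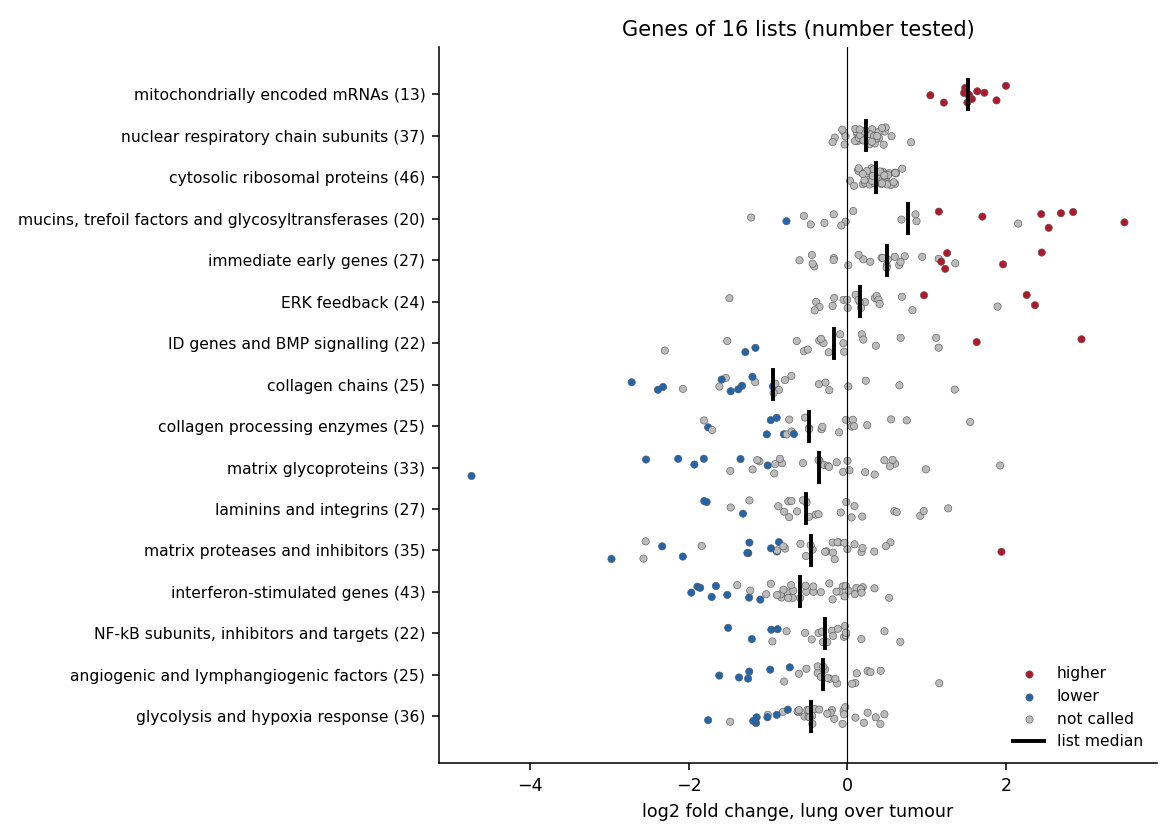
Fitted log2 fold change of lung over tumour for the tested genes of 16 lists, 1 point per gene; red points were called higher, blue points lower, grey points not called, and black bars are list medians (vertical scatter within a row has no meaning). All 13 mitochondrial mRNAs are red, while the collagen chains hold 9 blue points and the interferon-stimulated genes 8, with no red one in either list.

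Of 43 tested interferon-stimulated genes, 8 fell, none rose and 35 were not called, with a median of -0.60. IFIT1, IFIT2 and IFIT3, RNA-binding antiviral proteins encoded side by side on chromosome 10, fell by 1.89 ± 0.31, 1.71 ± 0.28 and 1.85 ± 0.25. IFIT3 had 253, 349 and 221 CPM in lung and 996, 849 and 1024 CPM in tumour. All tumour samples lay above all lung samples, with the lung of mouse 2 nearest to them (edgeR adjusted p = 0.000391). IFIH1, the cytoplasmic sensor MDA5, had 17.7, 36.6 and 20.6 CPM in lung and 67.2, 91.4 and 129.5 in tumour and fell by 1.97 ± 0.3. The ISG15 ligase HERC5 and the oligoadenylate synthetase family members OAS2, OAS3 and OASL fell by 1.66, 1.24, 1.1 and 1.51. IFIT2, IFIT3 and HERC5 were called without the mouse term. Of 18 tested genes of MHC class I and peptide loading only ERAP1 fell, and the median was -0.22.

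Promoters of these genes are shown because the 5 of these 8 genes found in the RefSeq promoter table (GRCh38.p14) all hold the same short motif. The motif searched was the interferon-stimulated response element, taken as GAAA, any 2 bases and GAAA again, on both strands within 250 bases before the start. It was found in 20 of 33 promoters of listed interferon-stimulated genes (60.6%), in 15 of the 28 that were not called (53.6%), and in 3.02% of all 35116 promoters of that length. Matches were thus not limited to the called members. A second motif, TTCNNNGAA, a STAT binding pattern, was in none of these 5 promoters and in 10 of the 28 that were not called (35.7%). It was in 10 of all 33 (30.3%) and in 6.57% of all promoters. No match of it was found in the window of ID1 or in those of SOCS3, chr17:78360926-78361175 and chr17:78359668-78359917. The SOCS3 windows do not cover the bases directly before 78360077, where the gene position given above starts on the minus strand. Those bases were not searched. For each gene, 80 bases around the match nearest the start are given on the gene's strand, 5′ to 3′, with matches in capitals, as TTTC blocks where the match is on the other strand; IFIT2, OAS2 and OASL were not in the table.
IFIT1 (chr10:89392485-89392564, plus strand): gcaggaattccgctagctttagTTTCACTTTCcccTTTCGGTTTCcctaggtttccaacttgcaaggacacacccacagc
IFIT3 (chr10:89327840-89327919, plus strand, first of 2 starts): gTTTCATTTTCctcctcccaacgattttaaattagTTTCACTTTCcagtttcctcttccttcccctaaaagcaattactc
HERC5 (chr4:88457010-88457089, plus strand): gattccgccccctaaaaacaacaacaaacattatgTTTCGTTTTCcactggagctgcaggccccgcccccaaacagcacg
OAS3 (chr12:112938394-112938473, plus strand): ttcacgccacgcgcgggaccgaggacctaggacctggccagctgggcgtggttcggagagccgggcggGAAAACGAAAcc
IFIH1 (chr2:162318685-162318764, minus strand): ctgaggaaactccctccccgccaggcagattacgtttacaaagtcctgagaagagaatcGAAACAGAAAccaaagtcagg

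Genes of NF-kB signalling were lower where called. Of 22 tested subunits, inhibitors and targets 4 fell, none rose and 18 were not called (median -0.28). NFKB1, the p105 precursor of the p50 subunit, had 69, 46.1 and 61.4 CPM in lung and 152, 181 and 168 CPM in tumour. The groups were well apart, and NFKB1 fell by 1.5 ± 0.17 (edgeR adjusted p = 7.51e-05). IRAK2, a kinase below interleukin 1 and Toll-like receptors, fell by 1.21 ± 0.23, the A20-binding inhibitor TNIP1 by 0.96 ± 0.21 and TRAF3, which restrains the noncanonical pathway, by 0.88 ± 0.2. NFKB1 and IRAK2 were called without the mouse term. Of 28 tested chemokine, interleukin 1 and colony stimulating factor genes IL12A fell and 27 were not called.

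Among glycolysis and hypoxia response genes 7 of 36 fell, none rose and 29 were not called, with a median of -0.46. PGK1, a glycolytic kinase, had 630.5, 490.3 and 587 CPM in lung and 1478, 1083 and 1341 CPM in tumour, with no overlap, and fell by 1.19 ± 0.22 (edgeR adjusted p = 0.00496; 0.12 without the mouse term). NDRG1, a hypoxia-induced gene, had 525, 509 and 500.1 CPM in lung and 1225, 1046 and 1138 in tumour and fell by 1.14 ± 0.26. The glucose transporter SLC2A1, the hexokinase HK1 and EPAS1, the oxygen-regulated factor HIF2 alpha, fell by 1.01, 0.75 and 1.15; LOX and P4HA1 were the others. LOX alone was called without the mouse term. Of 25 angiogenic and lymphangiogenic factors 6 fell, none rose and 19 were not called. They were the lymphatic growth factor VEGFC (-1.25) and its co-receptor NRP2 (-0.73), endothelin 1 with its converting enzyme and receptor, EDN1, ECE1 and EDNRA (-1.24, -0.97 and -1.61), and ANGPTL2 (-1.37). VEGFC had 44.4, 41.4 and 53.5 CPM in lung and 126, 96 and 111 in tumour, and with EDNRA stayed called without the mouse term.

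Lists on lipid synthesis, growth and stress held few calls. Of 27 cholesterol synthesis genes CYP51A1, SQLE and the regulator SREBF2 fell and 24 were not called, with a median of -0.34. Of 22 genes of fatty acid synthesis and storage ACLY, ELOVL5 and FADS1 fell, PDK4, which turns off pyruvate oxidation, rose by 1.34 ± 0.24, and 18 were not called. None of 32 mitotic genes was called, with a median of 0.11, and of 31 genes of S phase the polymerase subunit POLA1 fell by 0.77 ± 0.18 (0.454 without the mouse term). No member was called among 28 genes of the unfolded protein response, 24 NRF2 targets and 10 aryl hydrocarbon receptor targets. Of 22 amino acid transporters SLC6A6 fell and 21 were not called. Of 25 heat shock genes HSPB8 and DNAJB4 fell, and of 23 Hippo pathway genes F3 and NT5E fell and GADD45B rose. A list of 21 genes known from selection of MDA-MB-231 for lung metastasis had 18 tested: ID1 rose, TNC and LTBP1 fell, and 15 were not called, with a median of -0.33.

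Some of these values set the lung apart from the liver as well. Lung metastases of subclone 13 were therefore tested directly against its liver metastases, where 48 genes (0.276%) were called, 33 higher (0.189%) and 15 lower (0.0861%) in the lung. Without the mouse term none was called (792 genes at an unadjusted p under 0.05; smallest adjusted p 0.119), and DESeq2 called 354, so single calls of this comparison rest on the pairing. Of the 133 genes higher in lung than in tumour 20 were also higher than in liver, and of the 370 lower genes 11 were also lower than in liver. Both tests use the same lung samples, which favours such an overlap, so it is not independent evidence. Liver metastases against tumours, which share the tumour samples with the lung comparison, gave 318 called genes (1.83%), 75 higher (0.431%) and 243 lower (1.4%).

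Of the 13 mitochondrial mRNAs, 10 were higher in lung than in liver. MT-ND1 had 1600, 1359 and 1336 CPM in liver and was higher in lung by 1.65 ± 0.22 (edgeR adjusted p = 0.00209), with MT-ND2, MT-ND5 and MT-ND6 higher by 1.58 ± 0.21, 1.88 ± 0.29 and 1.9 ± 0.33. RGS1 had 2.02, 5.14 and 4.01 CPM in liver, about the tumour level, and was higher in lung by 4.17 ± 0.84 (adjusted p = 0.0398). MUC5AC had 1.81, 3.39 and 6.5 CPM in liver and was higher in lung by 2.54 ± 0.42 (adjusted p = 0.0119). ID1, SOCS3 and SPRY1 were not called between lung and liver: their differences were 0.46, 0.56 and -0.12, and SPRY1 had 160.2, 85.4 and 108 CPM in liver.

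The lists differed in how the liver values lay beside those of the lung; both are given against the same tumour samples. Of the 43 interferon-stimulated genes 11 were lower in liver, with a median of -0.77, beside 8 and -0.60 in lung. Of the 22 NF-kB genes 10 were lower in liver (median -1.10) beside 4 in lung (-0.28). Of the 25 collagens 5 were lower in liver (median -0.83) beside 9 in lung (-0.94), and of the 36 glycolysis and hypoxia genes 2 were lower and 1 higher in liver (median 0.04) beside 7 lower in lung (-0.46). Of the 13 mitochondrial mRNAs none was called in liver, where the median was 0.17.

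Of the lower genes, COL1A2 had 99, 64.1 and 105 CPM in liver, between the lung and the tumour values, and was lower in lung than in liver by 1.89 ± 0.38 (edgeR adjusted p = 0.0377). TNC had 345, 249 and 302 CPM in liver, also in between, and differed by 1.03 ± 0.17 in the same direction (adjusted p = 0.0123). LTBP2, GALNT6, POLA1 and HUWE1, an E3 ubiquitin ligase, were lower in lung than in liver by 1.2 ± 0.24, 1.0 ± 0.2, 0.99 ± 0.18 and 0.93 ± 0.17. For IFIT3 the difference between lung and liver was 0.44 (adjusted p = 0.542), with 209.5, 301 and 106 CPM in liver. PTGER4, a prostaglandin E2 receptor, was the single gene lower in lung than in tumour and higher in lung than in liver, with 31.2, 42.2 and 47.5 CPM in lung, 70.2, 71.7 and 74.8 in tumour and 17.5, 24.9 and 15 in liver. CYP1B1, a target of the aryl hydrocarbon receptor, had 25, 9.69 and 23.8 CPM in lung, 54, 28.9 and 143 in tumour and 0.203, 0.665 and 0.460 in liver. It was thus far lower in liver than in both other organs; the lung was above the liver by 5.71 ± 0.81 (adjusted p = 0.00329) and not called against the tumour (-1.73, adjusted p = 0.137). CD83, MAP3K8 and RELB of the NF-kB list, not called between lung and tumour, were higher in lung than in liver by 1.88 ± 0.35, 2.14 ± 0.37 and 1.05 ± 0.21.

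The same comparison in subclone 2, from the same 3 mice, called 532 genes (3.05%), 214 higher (1.23%) and 318 lower (1.83%) in the lung. Subclones 2 and 13 have no samples in common, though they share mice. Of the 133 genes higher in subclone 13, 95 were also called higher in subclone 2, which is 71.4% of the first list and 44.4% of the second. Of the 370 lower genes 172 were also called lower, 46.5% and 54.1% of the lists, and no gene was called in opposite directions. Of the 503 genes, 500 had an estimate of the same sign in subclone 2. The share of same signs over all genes tested was not counted, and both subclones came from the same mice and the same fit. A direct test of the difference between the subclones called no gene in edgeR (0%; 323 at an unadjusted p under 0.05; smallest adjusted p 0.813), and 1 of 17418 in DESeq2 (0.00574%).

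That gene was MDK, midkine, a heparin-binding growth factor at chr11:46380756-46383837. In subclone 13 it had 494, 515 and 569.5 CPM in lung and 118, 139 and 222 CPM in tumour, without overlap, and rose by 1.76 ± 0.19 (edgeR adjusted p = 5.44e-05). In subclone 2 it had 155, 114 and 151 CPM in lung and 114, 86.2 and 130 in tumour, which overlap, and the log2 fold change was 0.36 (edgeR adjusted p = 0.340). The difference between the subclones was 1.40 ± 0.27 in edgeR (adjusted p = 0.813) and 1.42 ± 0.27 in DESeq2 (adjusted p = 0.00332). In the liver of subclone 13 MDK had 442, 475 and 525 CPM, and its difference between lung and liver was 0.13.

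For the leading genes the estimates in subclone 2 were 3.65 for ID1, 2.96 for SOCS3, 1.97 for SPRY1, 2.25 for MUC5AC and 4.57 for RGS1, beside 2.95, 2.41, 2.36, 2.53 and 3.76 in subclone 13. They were -1.91 for TNC, -3.0 for COL1A2 and -2.54 for TGFBI, beside -1.93, -2.72 and -2.54. Wide gaps among the named genes were those of THBS2 (-1.15 beside -4.74) and ADAMTS12 (-0.73 beside -2.97), and neither was called in the test of the difference. The 43 interferon-stimulated genes had a median of -0.12 in subclone 2, with 3 lower, beside -0.60 and 8 lower in subclone 13; for IFIT1 the estimates were -1.04 and -1.89. For the 25 collagens the medians were -0.45 and -0.94 and for the 13 mitochondrial mRNAs 1.37 and 1.52. The differences between subclones in these lists were not tested as lists, and no member was called in the test of the difference.

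**Figure D5:**
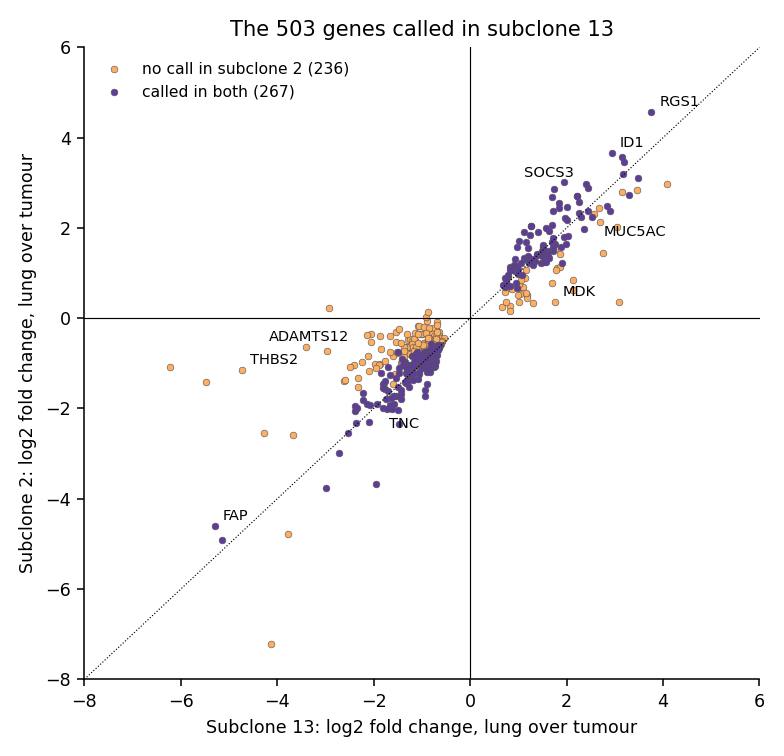
Log2 fold change of lung over tumour in subclone 2 (vertical axis) against subclone 13 (horizontal axis) for the 503 genes called in subclone 13; purple points were called in both subclones and orange points without a call in subclone 2, and the dotted line marks equal change. 500 of the 503 points have the same sign on both axes (the share over all genes tested was not counted), and MDK lies to the right of the line.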

How the data were processed

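The deposited values were read counts per gene, whole numbers, 1 column per library, in a table of 38526 genes made by the authors. RNA of sorted cells was DNase-treated and turned into libraries with an unstranded kit (TruSeq v2), per the labels' protocols. The submitters' processing notes name bcl2fastq 2.15.0.4, cutadapt, STAR, featureCounts and GRCh38 without roles. A shared mouse number marks a shared mouse in the labels. The labels call 6 of the 9 subclone 13 libraries of mouse 1 technical replicates and the authors' deposited sample sheet marks all 9; they were summed per organ.

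All 18 samples of the first experiment (6 groups, 3 mice) were fitted together in edgeR 4.0.16 (R 4.3.3): filterByExpr, which kept 17418 genes, TMM scaling, a quasi-likelihood F test with mouse as an additive term, and Benjamini-Hochberg adjustment over all tested genes at a threshold of 0.05. Standard errors are the absolute log2 fold change over the square root of F. The fit was also run on counts simulated from its own estimates, with changes placed only in genes above a minimum mean count. That run does not cover genes with low counts, and its outcome is not given here. Deviations from the group means correlated at 0.53, 0.38 and 0.27 between lung and tumour of the same mouse and at -0.38 to 0.09 between different mice. Deviations of the 3 mice of a group sum to 0, so the negative values between mice are partly built in. Alternatives were DESeq2 1.42.0, no mouse term, RLE scaling, no filter, single libraries, fewer samples, and leaving out samples or mice; a mouse term within each subclone and removal of the exon length trend were added after seeing the data.

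The 48 gene lists (1154 of 1169 entries matched) and the members were chosen with earlier results of these data known. Genes were named when called, with a symbol, the same direction in all 3 mice and, in the higher group, a mean CPM of 5 or more: the 15 largest changes each way against tumour, and 6 each way among genes also called against liver. For a difference between subclones the rule found no gene; MDK, CYP1B1, PTGER4, MTND2P28 and PRSS2 were chosen after their values were seen, and so were the list members given in full. Symbols came from a table of gene names and positions, types and exon lengths from GENCODE v29. CPM of marker genes, of single libraries and of the mitochondrial share use total counts and all others TMM-scaled ones. Some genes that the rule or the lists hold are not reported here.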

Additional observations from a re-analysis of the deposited data

Results flagged for a closer look

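MDK was singled out because its change between lung and tumour differed between the subclones in DESeq2's test of that difference, by 1.42 ± 0.27 on the log2 scale (adjusted p = 0.00332), with 3 of 3 mice higher in lung in each subclone. The edgeR test gave 1.40 ± 0.27 and an adjusted p of 0.813, so the difference fails the correction there. No group had enough samples for a check of single outlying values.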

How the results depend on the processing

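The number of genes called between lung and tumour was 503. It stayed within 1.5 times of that with RLE scaling (468), 1 library of mouse 1 (474 to 534), the libraries not labelled technical (475), the 6 compared samples (683), the 9 samples of subclone 13 (749), a replicate block within each subclone (563) and the length trend removed (415). It moved to 73 without the replicate block, 911 in DESeq2 and 766 without a filter. Leaving out 1 sample or 1 mouse gave 84 to 394; the lowest sample-wise counts were 138 and 139 without lung samples 3 and 2 and 145 without tumour sample 3. For lung against liver the 48 calls became 0 without the replicate block, 354 in DESeq2, 303 without a filter and 25 with the length trend removed, and 6 to 36 with a sample or mouse left out; for liver against tumour the 318 became 67 without the block, 633 in DESeq2 and 664 without a filter, and 99 to 312. The difference between the subclones had 0 calls, 1 in DESeq2 and 18 without a filter, and 0 in all other settings. The causes were not tested, beyond the fewer samples or genes of a setting. The mitochondrial share differed by 5.98 to 6.32 percentage points with a mouse left out. Of 39 named genes 23 lost their call without the replicate block, 23 without mouse 3 and 19 without mouse 2. With the length trend removed 5 lost it. None reversed, but the naming rule had asked for the same direction in all 3 mice. With 3 mice a p that misses the threshold does not show that levels were equal.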
